A study of Mus musculus with 6 samples.

Results

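Transcripts of 7 subunits of the GABA-A receptor were followed in the brain RNA-seq libraries of mice that overexpressed the human long non-coding RNA AP1AR-DT (AC109347.1) and of control mice. The subunits were the alpha genes Gabra2, Gabra3, Gabra4 and Gabra5, the beta genes Gabrb1 and Gabrb2, and the delta gene Gabrd. They were taken by gene name from the 52390 genes of the count table, and all 7 were among the 21844 genes that passed the filter on low counts. The series held 3 control mice and 3 AP1AR-DT_OE mice, all male C57BL/6, which received a recombinant adeno-associated virus in the medial prefrontal cortex at 8 weeks of age. The AP1AR-DT_OE mice received a vector in which the neuronal promoter of human synapsin I drove AP1AR-DT and the CMV promoter drove EGFP, and the control mice received the empty vector. How long after injection the tissue was taken was not given for these libraries in the sources used here. The study's results name the medial prefrontal cortex as the source of the RNA, its methods name cortical tissue, and the labels say brain. Nothing in the sources used here says that transduced cells were separated from the rest. AP1AR-DT is a human gene with no row in the mouse table, so the overexpression itself could not be checked in these counts. The control libraries are called Control 1 to 3 by their labels. The AP1AR-DT_OE libraries are called OE A, B and C, because their columns do not name a mouse.

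The GABA-A receptor is a pentameric, ligand-gated chloride channel that carries most fast inhibition in the brain. The usual receptor is built from alpha, beta and gamma subunits, and GABA binds where a beta subunit meets an alpha subunit. Receptors with gamma subunits and alpha2 or alpha3 gather at synapses, whereas many receptors with alpha5, and those that pair alpha4 with delta, lie outside synapses and carry tonic inhibition. Chromosome 5 of the mouse carries a cluster of these genes that includes Gabra2, Gabra4 and Gabrb1.

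In the GRCm38 annotation of GENCODE vM21, the cluster placed Gabra2 at chr5:70957597-71095849 on the minus strand, Gabra4 at chr5:71569749-71658308 on the minus strand, and Gabrb1 at chr5:71658113-72149037 on the plus strand. Gabra4 and Gabrb1 were arranged head to head, and their spans overlapped by 196 bases, of which 46 were exonic in both genes. Gabra5 lay at chr7:57407672-57510059 on the minus strand and shared 148 exonic bases with the antisense gene Gm9962. The use of strand in counting was not given, so reads from these shared stretches could not be assigned to one gene with certainty. Gabra3 lay at chrX:72432681-72656848, Gabrb2 at chr11:42419757-42629028 and Gabrd at chr4:155384980-155398112. All 7 genes were annotated as protein coding, and every level below is for a gene as a whole, not for single transcripts.

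The promoter windows of the chromosome 5 cluster and of Gabra5 are shown because Gabra2, Gabra5 and Gabrb1 were the subunits called lower, and Gabra4 starts beside Gabrb1 on the other strand. Each is a RefSeq window of GRCm38.p6, given 5′ to 3′ on the strand of the gene. Each holds 300 bases, most of them before a transcript start and the last ones after it. Capitals mark matches on either strand to the NRF1 core (GCGCANGC), the GC box (GGGCGG), the cAMP response element (TGACGTCA), the TATA box (TATAAA) or an EGR motif (GCGNGGGCG).
Gabra2, chr5:71095800-71096099, minus strand: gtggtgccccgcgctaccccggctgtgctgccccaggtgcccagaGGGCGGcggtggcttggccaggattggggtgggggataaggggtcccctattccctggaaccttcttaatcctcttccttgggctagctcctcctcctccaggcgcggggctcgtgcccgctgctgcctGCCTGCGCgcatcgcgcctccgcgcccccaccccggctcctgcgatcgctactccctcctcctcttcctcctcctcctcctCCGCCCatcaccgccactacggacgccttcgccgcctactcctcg
Gabra4, chr5:71658259-71658558, minus strand: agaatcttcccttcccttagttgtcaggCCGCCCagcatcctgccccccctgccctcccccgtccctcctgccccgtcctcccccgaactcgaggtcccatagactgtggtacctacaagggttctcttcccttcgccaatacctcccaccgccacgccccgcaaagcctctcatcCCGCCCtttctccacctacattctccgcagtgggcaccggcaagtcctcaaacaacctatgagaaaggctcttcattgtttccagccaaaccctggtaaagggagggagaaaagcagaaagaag
Gabrb1, chr5:71657671-71657970, plus strand: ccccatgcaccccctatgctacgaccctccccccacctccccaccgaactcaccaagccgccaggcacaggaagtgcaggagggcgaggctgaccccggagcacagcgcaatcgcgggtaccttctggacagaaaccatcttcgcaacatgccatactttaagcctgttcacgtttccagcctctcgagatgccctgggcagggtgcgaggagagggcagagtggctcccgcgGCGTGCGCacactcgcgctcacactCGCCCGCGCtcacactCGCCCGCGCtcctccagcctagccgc
Gabrb1 at the second start, chr5:71699682-71699981, plus strand: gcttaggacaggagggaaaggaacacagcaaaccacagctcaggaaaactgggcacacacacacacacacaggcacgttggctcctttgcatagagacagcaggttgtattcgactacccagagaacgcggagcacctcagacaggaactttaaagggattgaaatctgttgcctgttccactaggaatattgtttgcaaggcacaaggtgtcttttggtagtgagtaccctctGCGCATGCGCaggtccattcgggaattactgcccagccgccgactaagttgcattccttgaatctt
Gabra5, chr7:57510010-57510309, minus strand: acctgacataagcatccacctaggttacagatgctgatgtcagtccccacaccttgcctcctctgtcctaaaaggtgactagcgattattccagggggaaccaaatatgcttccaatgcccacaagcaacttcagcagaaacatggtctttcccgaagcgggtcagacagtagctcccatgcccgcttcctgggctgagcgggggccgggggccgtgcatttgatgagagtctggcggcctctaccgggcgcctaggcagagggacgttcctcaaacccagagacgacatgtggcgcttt

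The windows of the 3 subunits called lower had no searched motif in common, since the Gabra5 window held none. The NRF1 core was found once in the Gabra2 window, once in the first Gabrb1 window, and in the second Gabrb1 window as 2 overlapping matches on opposite strands. Over all 32851 windows, 9.95% held it. The GC box stood in the Gabra2 and Gabra4 windows and in the first window of Gabrb2, which is not shown, with 35.7% of all windows holding it. The EGR motif stood in the first Gabrb1 window and in the first window of Gabrb2, a subunit that was not called, against 5.55% of all windows. The cAMP response element was in none of the 10 windows that 6 of the 7 subunits had, against 1.79% of all windows. The TATA box, present in 13.6% of all windows, was in none of the 5 windows shown. It was in 3 of the 10 windows, which belong to Gabra3 and Gabrb2. The GC content of the windows was 70.0% for Gabra2, 58.7% for Gabra4, 66.0% and 50.3% for Gabrb1 and 56.7% for Gabra5, against a median of 52.7% over all windows. No window was held for Gabrd. Letters in a window are a description of the sequence, and no binding of a factor was measured.

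The libraries held 42061721 to 54668294 counts each. Mitochondrial transcripts took 7.20% to 9.86% of the counts in the control libraries and 5.75% to 6.80% in the AP1AR-DT_OE libraries. No pair of libraries agreed within sampling noise. Marker lists of 10 genes each differed widely within both groups. In Control 3, the choroid plexus list lay 4.04 above the mean of the 6 libraries on the log2 scale, with the transthyretin gene Ttr at 3428 CPM (counts scaled to a common library size) against 1.06 to 5.43 elsewhere, and the thalamic list lay 2.29 above it. In Control 2, the hypothalamic list lay 2.11 above the mean, with the oxytocin gene Oxt at 281 CPM, and the list of cortical excitatory neurons lay 1.46 below it. Slc17a7, the vesicular glutamate transporter that defines those neurons, ranged from 3.86 CPM in Control 2 to 463 CPM in OE B. The excitatory list was also low in OE C (-0.787 from the mean) and in Control 1 (-0.602), on the log2 scale. The striatal list summed to 2713 CPM in OE A and 1536 CPM in Control 1, against 416 to 1033 CPM elsewhere. Markers of regions outside the stated prefrontal cortex were thus high in Control 2, Control 3 and OE A, and less so in Control 1. Values for the members are also given without the libraries they rest on. In bulk tissue, fewer cells of a type and less RNA per cell cannot be told apart.

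The subunit transcripts leaned towards lower levels with AP1AR-DT. Gabra2, Gabra5 and Gabrb1 were lower in every AP1AR-DT_OE library than in every control library, Gabra3, Gabra4 and Gabrb2 had overlapping groups, and Gabrd varied by 12.3 times between its lowest and highest library. A gene was called at the threshold of the study, P under 0.05 with a log2 fold change (Log2FC, AP1AR-DT_OE against control) beyond 0.32 in either direction, in edgeR's quasi-likelihood test. By this rule 3 of 7 subunits were called lower, none was called higher and 4 were not called. Among all genes tested, 12.2% were called, 7.15% lower and 5.1% higher. The Log2FC was below 0 for 6 of the 7 subunits and for 51.5% of all genes. In the 4 deciles of genes with the lowest GC content, which held these 6 subunits, it was below 0 for 63.4% to 81.6%. In the eighth decile, which held Gabrd, it was below 0 for 33.7%. The median Log2FC was -0.34 over the subunits and -0.01 over all genes. The adjusted P (Benjamini-Hochberg over all genes, edgeR) was 0.295 for each of the 3 called subunits and higher for the others, and 0.0275% of all genes had an adjusted P under 0.05. With 3 mice a group, the smallest P that an exact permutation test can give is 0.1, and the 3 subunits whose groups did not overlap reached it. Groups failed to overlap for 22.4% of all genes, and for 12% every AP1AR-DT_OE value lay below every control value.

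**Figure D1:**
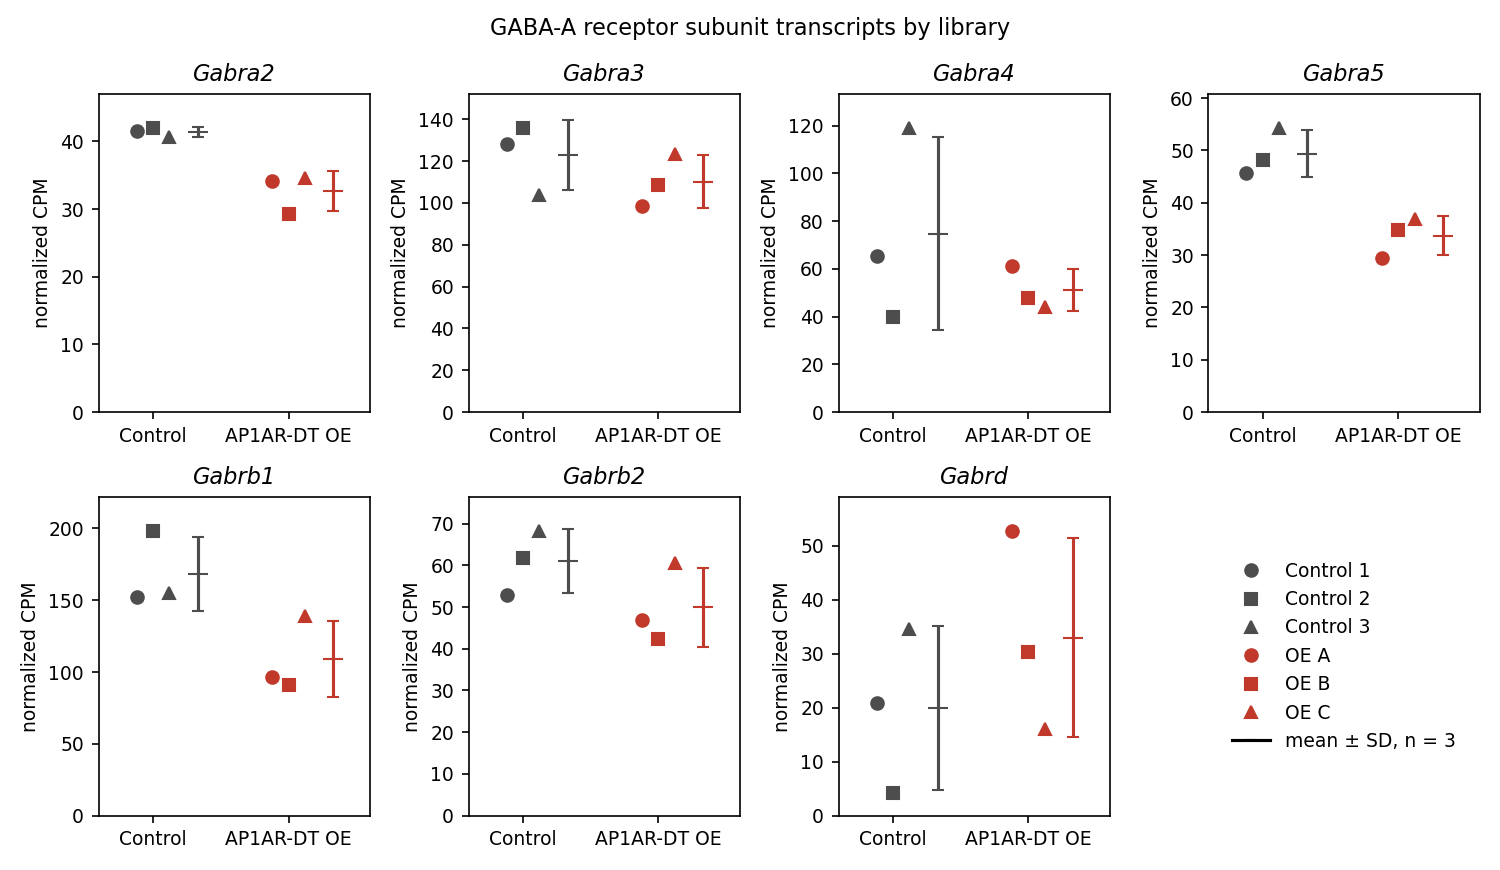
Normalized CPM of each subunit (vertical axis, from 0) in the control (grey) and AP1AR-DT_OE (red) libraries, 1 symbol per library, with the mean ± SD of each group (n = 3) beside the points. The groups are apart for Gabra2, Gabra5 and Gabrb1, and for Gabrd Control 2 is the lowest library at 4.28 CPM.

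Gabra5, whose product is enriched in the hippocampus and the deep cortex, had the smallest P of the 7 subunits. It stood at 45.6, 48.1 and 54.4 CPM in Control 1, 2 and 3 and at 29.5, 34.8 and 36.9 CPM in OE A, B and C. The highest AP1AR-DT_OE library thus lay below the lowest control library. The means were 49.3 ± 4.51 and 33.7 ± 3.78 CPM (SD, n = 3 each). The Log2FC was -0.55 (SE 0.123, adjusted P = 0.295, edgeR). It stayed between -0.60 and -0.41 over 17 fits that changed the tool, the scaling, the filter, the correction or the libraries. P was under 0.05 in every fit that kept more than 1 control. DESeq2 gave an adjusted P of 0.0251, the only one under 0.05 over those fits, which otherwise reached up to 0.661.

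Gabrb1, a beta subunit found in neurons and in astrocytes, had the largest fitted decrease of the 7 subunits. Its levels were 152, 198 and 155 CPM in Control 1, 2 and 3, and 96.8, 90.8 and 139 CPM in OE A, B and C. The groups did not overlap, but OE C lay much nearer to the controls than the other two did. The means were 168 ± 25.7 and 109 ± 26.4 CPM (SD, n = 3 each), and the Log2FC was -0.63 (SE 0.189, adjusted P = 0.295, edgeR). Over the 17 fits the Log2FC ranged from -0.83 to -0.39, and P was under 0.05 in every fit that kept more than 1 control. With Control 1 as the only control the Log2FC was -0.48, and there the spread came from the AP1AR-DT_OE libraries alone. The summed level of 10 astrocyte markers was 5189 to 6293 CPM in the controls and 5211 to 5453 CPM with AP1AR-DT. On the log2 scale the list lay -0.045 to 0.232 from the mean of the libraries in the controls and -0.134 to -0.037 from it with AP1AR-DT. Of the 10 markers 2, Sox9 and Aqp4, were called lower, against 7.15% of all genes. The part of astrocytes in the Gabrb1 difference was not tested.

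Gabra2, the alpha subunit of many synapses on the axon initial segment, showed the tightest controls. It stood at 41.5, 42.0 and 40.7 CPM in Control 1, 2 and 3 and at 34.2, 29.2 and 34.6 CPM in OE A, B and C. All 3 AP1AR-DT_OE libraries were lower, OE B most so. The means were 41.4 ± 0.688 and 32.7 ± 3.00 CPM (SD, n = 3 each), with a Log2FC of -0.34 (SE 0.103, adjusted P = 0.295, edgeR). This call was not kept when the GC content of transcripts was taken into account (Log2FC -0.03), nor without OE B, where the Log2FC of -0.27 fell short of the threshold.

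Gabra4, an alpha subunit of the thalamus, striatum and dentate gyrus, had one of the widest spreads. It stood at 65.3, 39.8 and 119 CPM in Control 1, 2 and 3 and at 61.1, 47.9 and 44.3 CPM in OE A, B and C. Control 3 was the highest of all libraries and Control 2 the lowest, so the AP1AR-DT_OE libraries lay within the range of the controls. The Log2FC was -0.55 (SE 0.367, adjusted P = 0.494, edgeR). It was -0.03 without Control 3 and -0.84 without Control 2, where the gene was called lower. The thalamic marker list summed to 1076 CPM in Control 3 and to 175 to 276 CPM in the other libraries. The striatal list was highest in OE A at 2713 CPM, and the part of either list in the level of Gabra4 was not tested.

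Gabrd, which joins alpha4 in receptors outside the synapse, was the one subunit with a fitted Log2FC above 0. It stood at 20.8, 4.28 and 34.6 CPM in Control 1, 2 and 3 and at 52.7, 30.3 and 16.0 CPM in OE A, B and C. Control 2 lay far below the rest, and OE C lay below 2 of the controls. The Log2FC of 0.73 had an SE of 0.712 (adjusted P = 0.644, edgeR). It ranged from 0.22 without OE A to 1.41 without Control 3, with no call in any fit that kept more than 1 control. The excitatory marker list, lowest in Control 2 at 301 CPM and highest in OE B at 1327 CPM, moved with Gabrd in Control 2, and its part in the level of Gabrd was not tested. At this spread, a difference in Gabrd of the fitted size could not be told from 0.

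Gabra3 and Gabrb2 differed less between the groups. Gabra3, an alpha subunit abundant in deep cortex and in monoaminergic nuclei, stood at 128, 136 and 104 CPM in Control 1, 2 and 3 and at 98.5, 109 and 123 CPM in OE A, B and C. Its groups overlapped, with a Log2FC of -0.16 (SE 0.134, adjusted P = 0.598, edgeR). Gabrb2, the beta subunit of the most common receptor of the adult brain, stood at 52.9, 61.8 and 68.2 CPM in the controls and at 46.9, 42.4 and 60.5 CPM in OE A, B and C. Of the AP1AR-DT_OE libraries, OE C alone lay above the lowest control, and the Log2FC was -0.29 (SE 0.162, adjusted P = 0.424, edgeR). Without OE C, Gabrb2 was called lower with a Log2FC of -0.44.

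The marker lists and the subunits can be read library by library in the heat map of deviations. Control 3 was high for Gabra4, thalamic and choroid plexus markers. Control 2 was low for Gabrd, Gabra4, cortical excitatory and striatal markers. OE C was low for cortical excitatory markers too, at -0.787, and their part in the subunit levels of OE C was not tested. The deviations of Gabra2, Gabra3, Gabra5, Gabrb1 and Gabrb2 stayed within 0.57 of their means in every library, on the log2 scale. With Control 1 as the only control, chosen after seeing the data to leave out Control 2 and Control 3, the Log2FC was -0.43 for Gabra5, -0.34 for Gabra2 and -0.48 for Gabrb1. This fit sets 1 library against 3 and assumes that the lone control varies like the AP1AR-DT_OE libraries, so its calls are not read here. Control 1 also had the highest mitochondrial share, 9.86%, and its striatal list lay 0.64 above the mean of the libraries on the log2 scale.

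**Figure D2:**
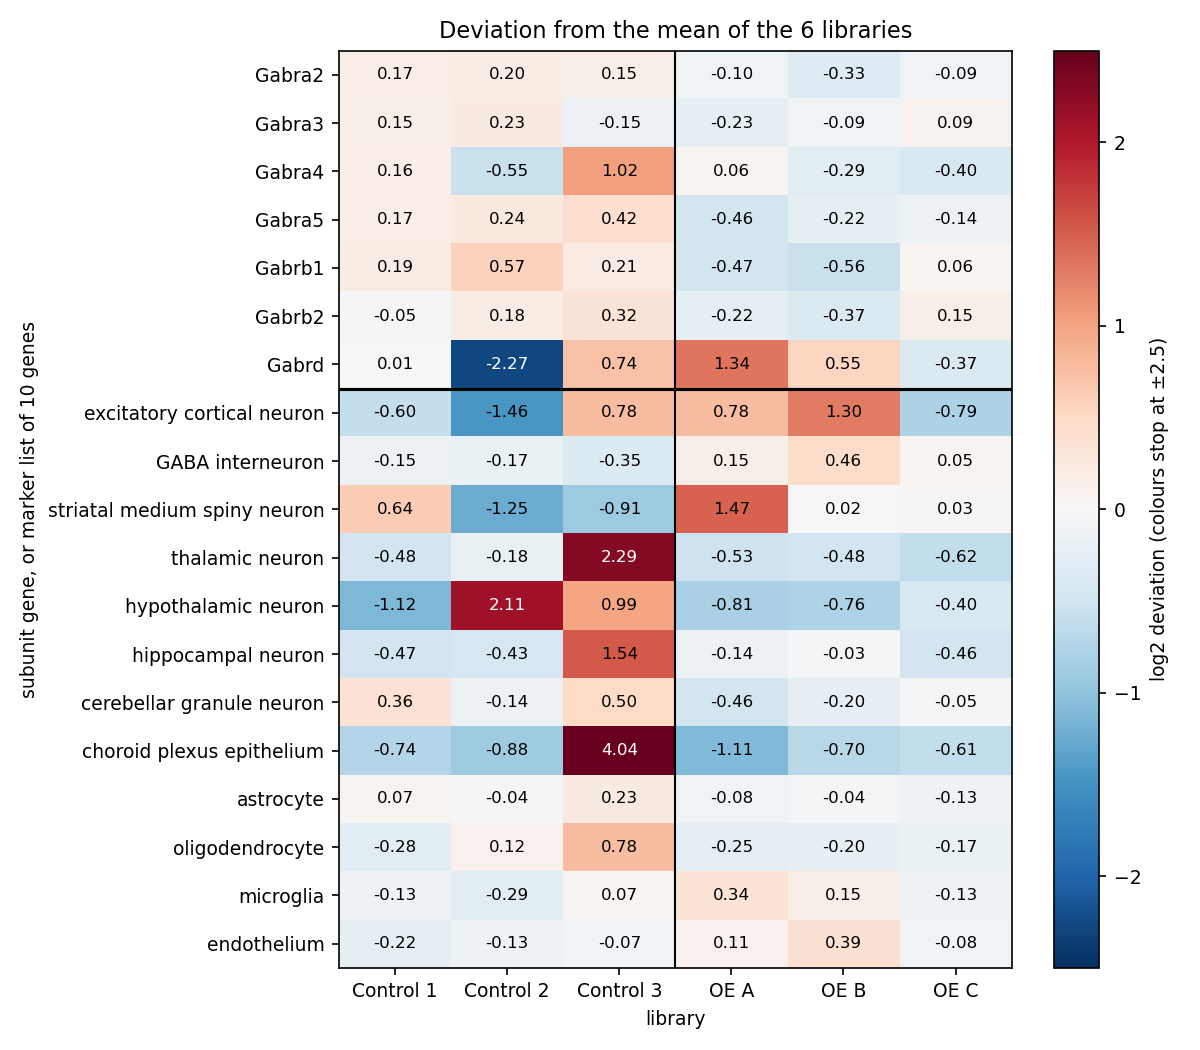
Deviation of each subunit (upper 7 rows) and of the mean of each 10-gene marker list (lower 12 rows) from its mean over the 6 libraries (columns), in log2 units, with controls left of the vertical line. Choroid plexus markers reach 4.04 in Control 3, Gabrd is at -2.27 in Control 2, and Gabra2, Gabra5 and Gabrb1 are above 0 in all 3 controls.

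The change of a gene followed the GC content of its transcripts across the whole table. In the decile of genes with the lowest GC content the median Log2FC was -0.30 and 22% were called lower, while in the decile with the highest GC content the median was 0.22. Gabra2 (38.4% GC in the longest transcript) and Gabrb1 (40.9%) lay in the lowest decile, and Gabra3 (43.1%) and Gabra4 (42.2%) in the second, where the median was -0.22 and 15.1% were called lower. Gabrb2 (44.0%) lay in the third decile with a median of -0.13, Gabra5 (47.1%) in the fourth with a median of -0.09 and 7.56% called lower, and Gabrd (54.7%) in the eighth with a median of 0.12. The order of the subunits by GC content thus ran from Gabra2 to Gabrd, and the one subunit with a positive Log2FC had the highest GC content.

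With a correction for GC content in each library, Gabra5 (Log2FC -0.48) and Gabrb1 (-0.39) were still called lower. Their adjusted P was 0.533 and 0.547, and the P of Gabrb1 was 0.0433 (edgeR). Gabra2 then stood at -0.03 and Gabra3 at 0.03, neither of them called. Gabra4 stood at -0.33, Gabrb2 at -0.13 and Gabrd at 0.60, none of them called. The Gabra2 difference of -0.34 was close to the median of its decile, whereas the Gabra5 difference of -0.55 lay far below the median of its own. The share of all genes called was 7.18% after the correction.

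**Figure D3:**
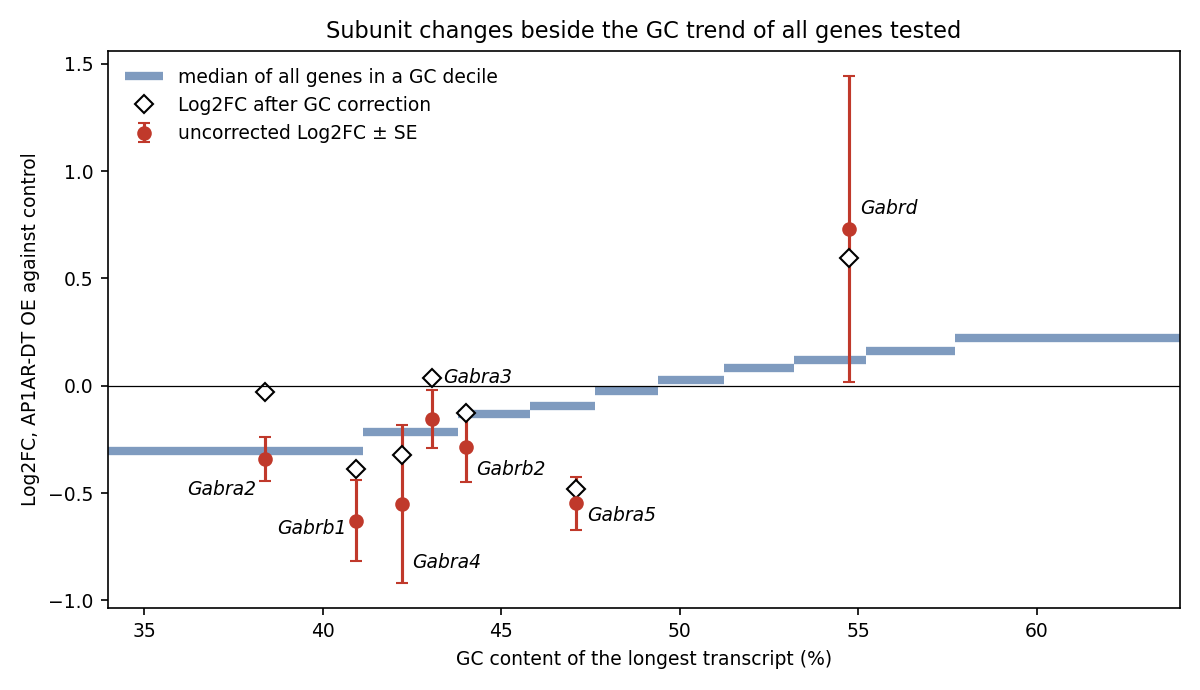
Log2FC of each subunit with its SE (red) against the GC content of its longest transcript in percent, the Log2FC after the GC correction (diamonds), and the median Log2FC of all genes in each decile of GC content (bars). Gabra2 lies on the trend of all genes at -0.34 and moves to -0.03, whereas Gabra5 moves from -0.55 to -0.48.

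Levels were compared between subunits per kilobase of the longest annotated transcript. On this scale Gabra3 was highest, with a mean of 31.8 ± 4.08 CPM per kb over the 6 libraries (SD). Gabra5 (15.6 ± 3.49), Gabra4 (15.3 ± 7.12) and Gabrb2 (13.9 ± 2.45) followed and did not differ beyond their spread. Gabrb1 (10.1 ± 2.92), Gabrd (9.77 ± 6.19) and Gabra2 (6.33 ± 0.881) were lowest. From Gabra5 down, each subunit had a range over the libraries that overlapped that of the next. Gabra3 exceeded Gabra4 in every library except Control 3, where they stood at 28.4 and 29.0 CPM per kb. Gabrb1 has a longest transcript of 13737 bases, against 2671 to 5852 bases for the others, and no other transcript was used for these levels.

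The groups did not overlap in the share that Gabra5 took of the 4 alpha transcripts, and they overlapped for the other 3 genes. Of their summed per-length level, Gabra5 took 22.7%, 25.0% and 24.0% in Control 1, 2 and 3 and 18.9%, 22.0% and 21.5% in OE A, B and C. Every AP1AR-DT_OE share was below every control share, a difference of -3.15 percentage points (exact permutation P = 0.1, the smallest possible), which ranged from -3.75 to -2.19 points with 1 library left out. The Gabra2 share was 9.21% ± 0.906 in controls and 9.19% ± 0.772 with AP1AR-DT (SD, n = 3 each, exact permutation P = 0.9). Gabra3 took 43.9% ± 9.34 and 49.4% ± 3.37, and Gabra4 23.0% ± 10.5 and 20.6% ± 4.37, with overlapping groups (exact permutation P = 0.5 and 0.8). With 1 library left out, the difference ranged from 0.33 to 9.36 points for Gabra3 and from -7.12 to 3.28 points for Gabra4. These shares do not depend on the scaling of a library, and they cover these 4 genes only.

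**Figure D4:**
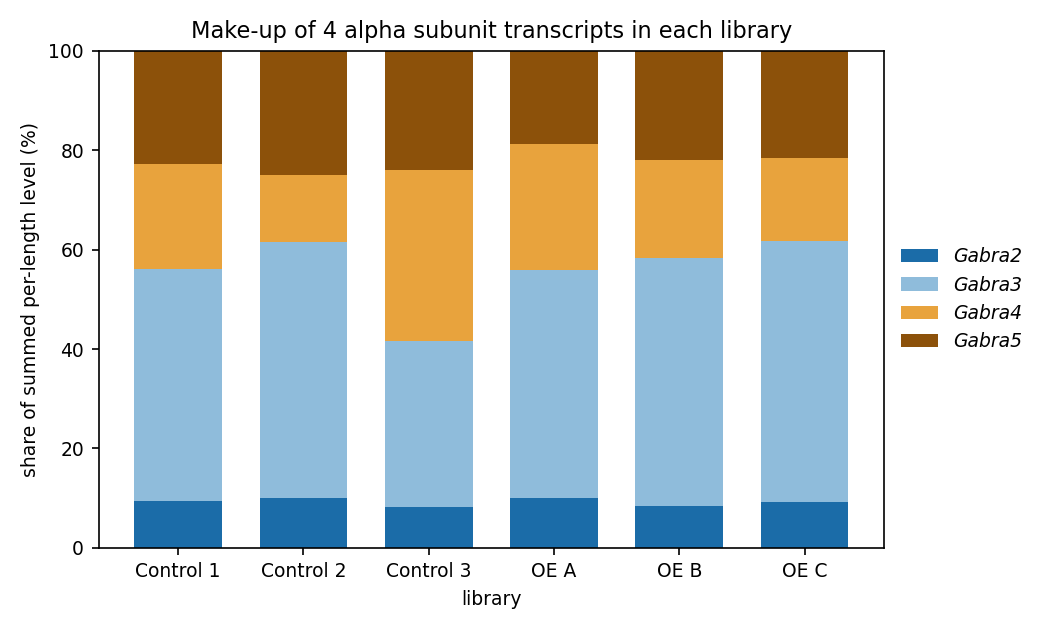
Share of Gabra2, Gabra3, Gabra4 and Gabra5 in their summed per-length level (vertical axis, percent) in each of the 6 libraries (horizontal axis). Gabra5 takes 22.7% to 25.0% in the controls and 18.9% to 22.0% with AP1AR-DT, and Gabra4 varies most, from 13.5% in Control 2 to 34.3% in Control 3.

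The neighbouring genes of the chromosome 5 cluster were compared with each other by their ratio within a library. The log2 ratio of Gabra2 to Gabrb1 counts was -2.01 ± 0.194 in controls and -1.71 ± 0.262 with AP1AR-DT, a difference of 0.30 (exact permutation P = 0.3). For Gabra4 to Gabrb1 the difference was 0.23 (exact permutation P = 0.7), and for Gabra2 to Gabra4 it was 0.07 (exact permutation P = 1). With 1 library left out, these differences ranged from 0.19 to 0.45 for Gabra2 to Gabrb1, from -0.28 to 0.69 for Gabra4 to Gabrb1 and from -0.35 to 0.47 for Gabra2 to Gabra4. The groups overlapped for all 3 ratios, so no difference in change between these neighbours was detectable with 3 mice a group.

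The genes whose profile over the 6 libraries was most like that of each subunit were ranked by the root mean square (RMS) difference of log2 values after each gene's mean was removed, among 14015 genes. Gabra2 was nearest to Pclo, Far1 and Msl2 (RMS difference 0.0228 to 0.027), and Gabra3 to Grip1, Hs2st1 and Gm10254 (0.0266 to 0.0359). Gabra5 was nearest to Cecr2, Gm12435 and Hspa4l (0.0501 to 0.0671), Gabrb1 to Gm8538, Dync2h1 and Lcorl (0.0346 to 0.0456), and Gabrb2 to Gm5940, Trip11 and Phf6 (0.0316 to 0.0473). No gene came as near to the subunits of wide spread. Gabra4 was nearest to Rgs7bp, Acvr1c and Nrep (0.157 to 0.168), and Gabrd to Ankrd33b, 6530402F18Rik and Fam131a (0.389 to 0.418). The points share libraries and their depth, and the likeness is a description.

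Around the receptor, 66 further genes of GABA signaling stood in 6 lists. Of the 62 tested, 14 were called at the same threshold, against 12.2% of all genes, all with an adjusted P (edgeR) of at least 0.295. With the GC correction by longest transcript, the GABA-B, postsynaptic and chloride lists held 2 calls each and the other lists 0. Of 9 other GABA-A subunits, 6 were tested and Gabrg1, a gamma subunit, was called lower (Log2FC -0.56, SE 0.214). It stood at 78.1, 113 and 69.8 CPM in the controls and at 52.6, 51.7 and 72.2 CPM in OE A, B and C, so that the groups overlapped through OE C, and it was not called with the GC correction (Log2FC -0.19). Gabre and Gabrq, the epsilon and theta subunits, peaked in Control 2 at 47.1 and 66.0 CPM, against at most 15.6 and 26.7 CPM elsewhere, and were not called (Log2FC -1.36, SE 0.833, and -1.04, SE 0.626). The hypothalamic list summed to 649 CPM in Control 2 and to 28.7 to 90.1 CPM elsewhere, and its part in these levels was not tested. The median Log2FC of the 6 tested subunits was -0.35.

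None of the 9 tested genes of GABA synthesis, transport and breakdown was called, and their median Log2FC was 0.07. Slc32a1, the vesicular GABA transporter, stood at 679, 558 and 309 CPM in the controls and at 694, 741 and 789 CPM in OE A, B and C, without overlap (Log2FC 0.52, SE 0.263). Gad1, a GABA-synthesizing enzyme, had a Log2FC of 0.38 (SE 0.241), and its groups overlapped. The GABA interneuron marker list, which holds Gad1, Gad2 and Slc32a1, lay -0.346 to -0.149 from the mean of the libraries in the controls and 0.051 to 0.462 from it with AP1AR-DT, on the log2 scale, and its part in these levels was not tested.

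Of 6 genes of the GABA-B receptor, Kctd12b, an auxiliary subunit, was called lower, at 6.39 to 11.1 CPM in the controls and 4.22 to 5.55 CPM with AP1AR-DT (Log2FC -0.91, SE 0.239). The receptor genes themselves, Gabbr1 and Gabbr2, were not called in the test as reported (Log2FC -0.03, SE 0.091, and -0.42, SE 0.247). The median Log2FC of the list was -0.24. Under the GC correction by longest transcript, Gabbr2 was called lower (Log2FC -0.58), close to the P threshold, and Kctd12b was still called lower (-0.60). The correction by mean GC content left 1 call in this list. Of 5 glycine receptor genes none was called. Glrb, the beta subunit that binds gephyrin, came closest at 143 to 166 CPM against 128 to 141 CPM (Log2FC -0.23, SE 0.093), with P under 0.05 but short of the fold threshold. The alpha subunits Glra1 and Glra2 had a Log2FC of -1.39 (SE 0.754) and -0.36 (SE 0.246), and the median of the list was -0.39.

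Among 28 genes of the inhibitory postsynapse and of receptor trafficking, 3 were called higher and 5 lower, against 5.1% and 7.15% of all genes, with a median Log2FC of 0.12. The neuroligin of inhibitory synapses, Nlgn2, was called higher, at 267 to 375 CPM in the controls and 396 to 418 CPM with AP1AR-DT (Log2FC 0.34). Mdga1, which binds neuroligins, was called higher as well (0.46), as was the dystrophin-associated scaffold Insyn1 (0.47). The gephyrin gene Gphn, the main scaffold, was not called (-0.11, SE 0.114). Called lower were Mdga2 (-0.39), Lhfpl3 (-0.46), the dystrophin gene Dmd (-0.33), Rdx, whose product radixin anchors alpha5 receptors outside the synapse (-0.44), and Plcl1, whose product binds beta subunits and phosphatases (-0.91). Plcl1 was highest in Control 3 at 68.1 CPM, and the groups overlapped for Plcl1, Rdx and Insyn1. With the GC correction, Plcl1 alone of these 8 genes was still called (-0.76), and Plcl2, a relative of Plcl1, was called higher (0.54). The 3 genes called higher had a GC content of 58.7% to 62.8%, and the 5 called lower had 41.5% to 44.4%.

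Of 8 genes that set or use the chloride gradient, 2 were called higher and 2 lower, against 5.1% and 7.15% of all genes, and the median Log2FC was -0.31. Slc12a5, the neuronal chloride exporter KCC2, was called higher, at 577, 548 and 426 CPM in Control 1, 2 and 3 and 625, 710 and 647 CPM in OE A, B and C (Log2FC 0.35, SE 0.133), without overlap. The chloride channel gene Clcn2 was called higher too, at 15.0 to 18.5 CPM in the controls and 23.5 to 25.4 CPM with AP1AR-DT (0.53, SE 0.118). The kinase genes Wnk1 (-0.38, SE 0.110) and Stk39 (-0.72, SE 0.260), which act on chloride cotransporters, were called lower. With the GC correction, Wnk1 and Stk39 were still called and Slc12a5 (0.15) and Clcn2 (0.29) were not, and without Control 3 the list held 2 calls. Slc12a2, the chloride importer NKCC1, stood at 138 CPM in Control 3 and at 51.8 to 69.7 CPM elsewhere and was not called (-0.66, SE 0.331). Stk39 was likewise highest in Control 3, at 88.7 CPM, the library with the choroid plexus markers, whose part in either level was not tested.

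**Figure D5:**
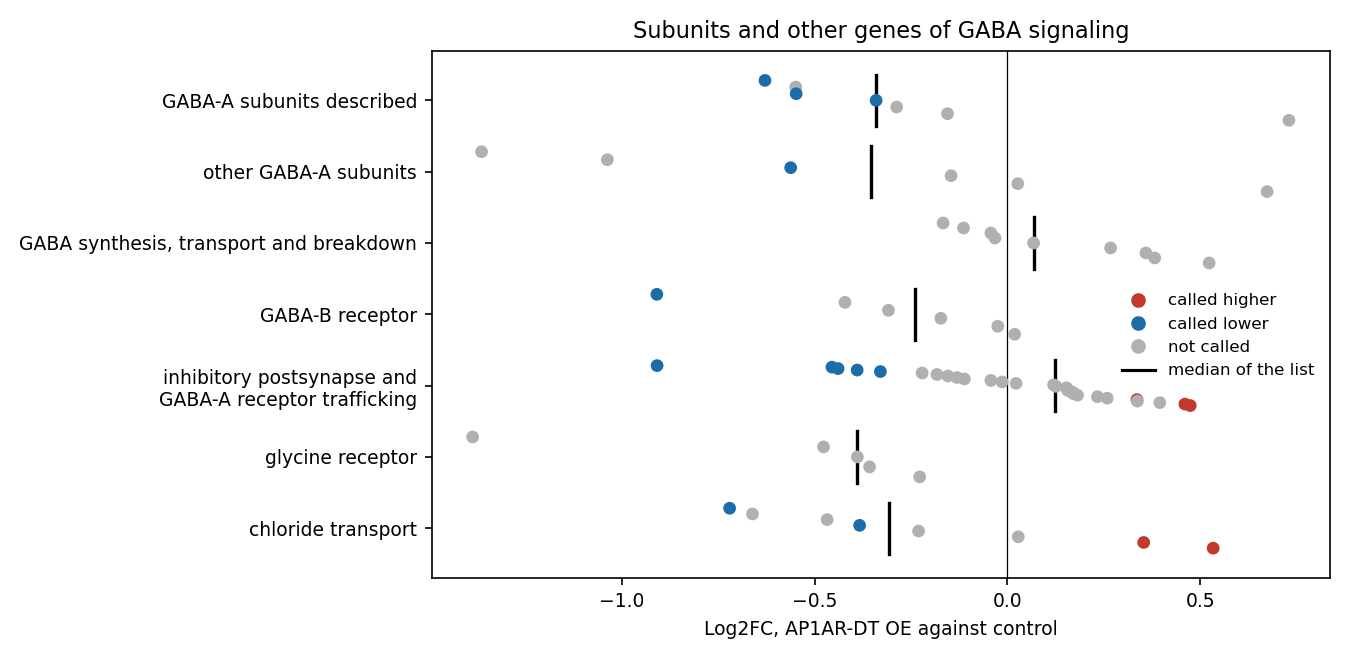
Log2FC (horizontal axis) of the 7 subunits and of the tested genes of the 6 lists, 1 point per gene, red where called higher, blue where called lower and grey where not called, with the median of each list as a bar. The median of the 7 subunits is -0.34 and that of the synthesis, transport and breakdown list is 0.07.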

How the data were processed

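RNA-seq was done on brain of 3 control and 3 AP1AR-DT_OE mice. The deposited table gives whole-number counts per gene, one column per mouse, which the authors made, by their methods, with FastQC, Bowtie2 at default settings against GRCm38 and StringTie with a GENCODE annotation (versions not given). Bowtie2 does not split reads over introns, so reads across exon junctions may be lost. The submitters' processing notes instead name TopHat2 2.0.4, SAMtools, HTSeq, Cuffdiff, edgeR 2.6.12 and mm9. Counts were used as deposited, and coordinates, transcript lengths and GC content came from the GRCm38 annotation of GENCODE vM21. The authors' columns of their DESeq2 comparison (the mean signal as size-factor-scaled counts, the log2 fold change and its error, the Wald score and p-values) were not used.

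Counts were filtered with filterByExpr, scaled by TMM and tested with edgeR 4.0.16 (glmQLFit, glmQLFTest, two-sided, no covariate) in R 4.3.3 over 21844 genes, with the SE taken as |Log2FC| divided by the root of F. Normalized CPM used the same scaling. Differences of log2 CPM (offset 0.05), shares and ratios were tested by two-sided exact permutation. For the correction for GC content or transcript length, the deviation of each library was fitted with a spline (5 degrees of freedom) over genes whose mean log2 CPM exceeded 2. Alternatives used DESeq2 1.42.0, limma 3.58.1, other scalings and filters, and libraries left out. The fit was tested on simulated counts. The libraries of a group are labelled as separate mice, so P measures the spread between mice, tissue taken included.

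The members and lists were chosen with earlier results of these data known. All members, every called gene of a list or, failing that, up to 3 of smallest P, and the 3 nearest profiles were named; Gabre, Gabrq, Gabbr1, Gabbr2, Gphn, Plcl2, Slc12a2 and Glul were named besides, after their values were seen. For 3 genes of the list of other subunits, which were not candidates for the nearest profiles, and for a few other listed genes, values are not reported here.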

Additional observations from a re-analysis of the deposited data

How the results depend on the processing

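Of the 7 subunits, 3 were called in the test as reported and 2 to 4 with 1 library left out. Over all genes, the share called with 1 library left out was 6.33% to 15.6%. Either GC correction or the length correction left 2 subunits called. Calls with Control 1 as the only control are not given. The correction by mean GC content over transcripts and the use of Control 1 as the only control were chosen after seeing the data. Gabra3 turned to a Log2FC of 0.03 under the GC correction by longest transcript (0.034) and by mean GC content (0.033), and Gabra2 turned to 0.007 with the latter. The length correction left Gabra2 at -0.27, under the threshold. Gabra5, Gabrb1 and Gabrb2 kept their sign in all 17 fits, as did Gabra4 and Gabrd.

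In the lists, the GC correction moved the calls to 0 for the other subunits, 2 for the GABA-B receptor, 2 for the postsynapse and 2 for chloride transport. Mean GC content gave 0, 1 and 1 for the other subunits, postsynapse and chloride transport. DESeq2 gave 1 for synthesis. With 1 library left out, calls ranged from 0 to 2 for the other subunits, 0 to 3 for synthesis, 1 to 2 for the GABA-B receptor, 1 to 8 for the postsynapse, 0 to 2 for the glycine receptor and 2 to 6 for chloride transport. The share of all genes called in these fits ran from 6.33% without OE B to 15.6% without OE C. The cause of these moves was not tested. Over all genes, the 2675 calls became 1567 and 1554 with the GC corrections, 1430 without OE B and 1620 without OE A. They rose to 2965 with DESeq2, 3391 without Control 1 and 3508 without OE C. DESeq2 gave 450 genes an adjusted P under 0.05 against 6.

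No paired analysis was possible because the AP1AR-DT_OE columns carry no mouse number and the labels of the groups share only 1 number. The counts of the subunits were at least 213 in every library. What limited the adjusted P of the subunits was not tested.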

Other observations

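Among the genes of GABA metabolism, Glul, which makes glutamine, split the libraries without regard to group. It stood at 1527 and 1541 CPM in Control 1 and OE A and at 300 to 384 CPM in the other 4 libraries. Its Log2FC of 0.07 had an SE of 0.797 (edgeR). The striatal marker list was also highest in Control 1 and OE A, at 1536 and 2713 CPM, and its part in the level of Glul was not tested. Microglial and endothelial markers leaned the other way from the subunits, with 5 of 10 and 3 of 10 genes called higher and none lower, against 5.1% of all genes called higher. The summed microglial level was 369 to 451 CPM in the controls and 400 to 564 CPM with AP1AR-DT, so these sums overlapped. The summed endothelial level was 121 to 141 CPM in the controls and 147 to 199 CPM with AP1AR-DT, without overlap. Of 10 listed genes each, 3 oligodendrocyte, 2 astrocyte, 5 thalamic, 4 hypothalamic and 5 choroid plexus markers were called lower, against 7.15% of all genes.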
